A study of Mus musculus with 2 samples.

Results

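Macrophages that carried the monocyte chemokine receptor Ccr2 but little Arg1 were described in solid tumours of the ID8 mouse model, in which cells derived from mouse ovarian surface epithelium grow as ovarian cancer. The members are cell barcodes chosen by their own counts of 16 genes. Each had at least 4 UMIs (unique molecular identifiers, counted transcripts) of C1qa, C1qb and C1qc together, at least 1 UMI of Csf1r, no Cd3e or Cd79a, and at most 1 UMI of Krt18. Each also had at most 1 UMI of Vsig4, Timd4 and Gata6 together, under 5 UMIs of Retnla and Ear2 together, under 15 UMIs of Il1b and Cxcl2 and under 10 UMIs of Arg1 per 10000 UMIs, and at least 1 UMI of Ccr2. There were 1056 such cells among 27732 kept barcodes, 607 in the chemoresistant library and 449 in the primary library. The chemoresistant library came from tumours of mice given the platinum drug cisplatin, which damages DNA, and the primary library from treatment-naive tumours. Both groups carried ID8 tumours, and neither the host strain nor the age of the mice is given in the sources used here. Tumour suspensions were pooled before 10x Genomics 3' v3 capture, so each group is 1 library of an unstated number of animals. No difference between the groups therefore has a replicate check, no p-value is given, and the 95% intervals cover counting error only.

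Ccr2 is the receptor for Ccl2 and is carried by classical monocytes, which use it to leave the bone marrow and enter inflamed tissue and tumours. As such monocytes turn into macrophages they lose Ccr2 and Ly6c2 and take up C1q, the first component of the classical complement pathway, together with other macrophage genes. Cells on the way can pass through a state rich in MHC class II, the complex that shows peptides to CD4 T cells, while Arg1, the arginine-degrading enzyme arginase 1, marks another macrophage state common in tumours.

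The kept barcodes had a median of 4634.5 UMIs in the chemoresistant and 5744 UMIs in the primary library. Among the members the gap was wider, with medians of 4576 UMIs and 1917 genes in chemoresistant cells against 10489 UMIs and 3392 genes in primary cells. The members' summed counts were 3340243 UMIs in the chemoresistant and 4947879 UMIs in the primary library. The 2 libraries shared 52 barcode sequences, and 3 members of each library had a barcode that was also kept in the other. Levels below are CPM, counts scaled to a total of 1000000 UMIs, of the UMIs summed over a class of cells in a library. In such sums, fewer cells with a transcript and less transcript per cell cannot be told apart.

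The label was checked on genes that the selection did not use. Ms4a6c, a membrane gene of monocytes and young macrophages, was detected in 89.5% of chemoresistant members (interval 86.7 to 91.8%) and 94.2% of primary members (91.6 to 96.2%), against 4.02% and 14.2% of B cells from the same libraries. F13a1, coagulation factor XIII A of monocytes and macrophages, was detected in 74.6% (71.0 to 78.0%) of chemoresistant and 71.5% (67.1 to 75.6%) of primary members, against 4.73% and 11.4% of B cells. The B cells served as the background of free RNA, at a median depth of 1693 UMIs in the chemoresistant and 4346 UMIs in the primary library. Adgre1, which encodes the macrophage antigen F4/80, stood at 204 CPM in chemoresistant and 210.2 CPM in primary members, close to its 181 and 183 CPM in Arg1 macrophages. These are genes of mononuclear phagocytes, and their share among members lay far above that in B cells. The comparison with B cells does not set the members apart from other macrophages. Ms4a6c was also detected in 90.7% of chemoresistant and 89.8% of primary Arg1 macrophages, which had median depths of 6985 and 11818 UMIs. After random thinning to an equal depth, the shares were 73.3% and 68.4% of members and 65.1% and 47.5% of Arg1 macrophages. F13a1 was not particular to the members. It stood at 1782 CPM in chemoresistant and 1861 CPM in primary Arg1 macrophages, above the 892 and 964 CPM of the members.

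Members made up 4.07% of the kept chemoresistant barcodes (3.76 to 4.40%) and 3.50% of the kept primary barcodes (3.19 to 3.83%), a difference of 0.570 percentage points. Among all C1q macrophages, that is the barcodes that met the limits on C1q, Csf1r, Cd3e, Cd79a and Krt18, they were 18.5% of 3280 chemoresistant cells (17.2 to 19.9%) and 19.7% of 2276 primary cells (18.1 to 21.4%). That difference of -1.22 percentage points had an interval of -3.37 to 0.899. The other C1q macrophages were sorted by the same limits into Arg1 macrophages (1598 chemoresistant and 898 primary cells), a Ccr2-negative rest that differed from the members only by having no Ccr2 UMI (289 and 167), Il1b/Cxcl2 macrophages (289 and 164), Retnla/Ear2 macrophages (204 and 452) and resident-type macrophages (293 and 146). The limit on Retnla and Ear2 is a UMI count, which deeper cells reach more easily. Read per 10000 UMIs it gave 558 chemoresistant and 452 primary members. The difference in the share of C1q macrophages was then -2.85 percentage points (-4.97 to -0.75), and that in the share of kept barcodes 0.218 (-0.230 to 0.664), so both depend on that reading.

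The limits cut through ranges rather than separate groups of cells. A single Ccr2 UMI brought in 86 chemoresistant and 42 primary members. These had 2560 and 2972 CPM of H2-Aa, between the 4827 and 4870 CPM of members with 2 or more Ccr2 UMIs and the 1898 and 1652 CPM of the Ccr2-negative rest just outside. The 37 chemoresistant and 33 primary members with 8 to 10 Arg1 UMIs per 10000 had 3432 and 3922 CPM of H2-Aa. The 49 chemoresistant and 24 primary Ccr2-positive cells just past that limit, with 10 to 12 Arg1 UMIs per 10000, had 3622 and 2681 CPM. Members with a C1q sum of 4 or 5 UMIs numbered 20 and 35, with 399 and 151 CPM of the monocyte gene Ly6c2. The cells outside with a sum of 2 or 3 numbered 49 and 80 and had 164 and 58.5 CPM of Ly6c2.

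**Figure D1:**
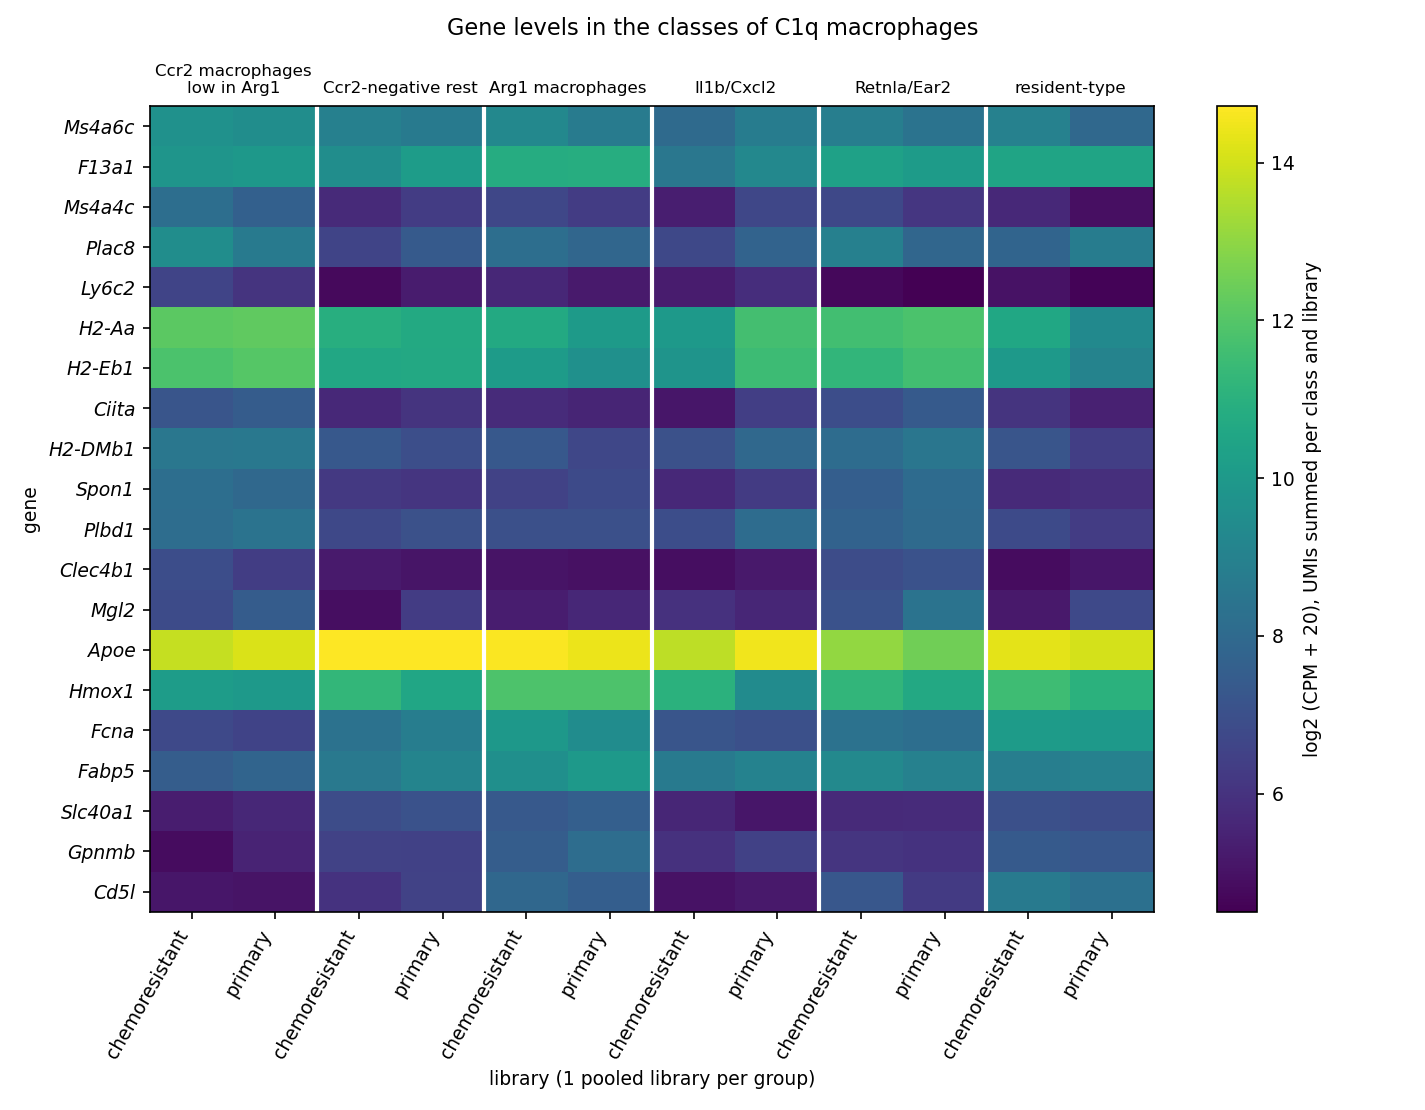
Levels of 20 genes, as log2 of CPM with 20 CPM added, in the 6 classes of C1q macrophages (columns, chemoresistant left of primary in each pair), from UMIs summed per class and library. In the members H2-Aa, Ciita, H2-DMb1, Ms4a4c and Ms4a6c are brighter, and Fcna, Gpnmb and Slc40a1 darker, than in Arg1 macrophages and in the Ccr2-negative rest of the same library.

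The first comparison set the members against Arg1 macrophages, the most numerous C1q macrophages, in each library by itself. A gene was called when it differed by more than 1.5-fold the same way in both libraries, after 20 CPM were added to both sums. This is a limit of size and not of significance, and the classes were formed from counts in the same cells, so that the values are descriptions. Of 8264 genes with a mean of at least 10 CPM, 162 (1.96%) were higher in members and 182 (2.2%) were lower. The median log2 ratio of all genes was 0.07 in the chemoresistant and 0.02 in the primary library.

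Genes of antigen presentation were higher in the members than in Arg1 macrophages. Of 11 MHC class II genes tested, 9 were higher in members and none was lower, with a median log2 ratio of 1.21 in the chemoresistant and 1.88 in the primary library. H2-Aa, the alpha chain of the class II molecule I-A, stood at 4548 CPM (4476 to 4621) in members and 1673 CPM in Arg1 macrophages of the chemoresistant library. In the primary library it stood at 4730 CPM (4670 to 4791) in members and 1066 CPM in Arg1 macrophages. H2-Eb1, the beta chain of I-E, stood at 3603 CPM in members against 1074 CPM in Arg1 macrophages of the chemoresistant library, and at 4193 CPM against 769 CPM in the primary library. Cd74, the invariant chain that escorts class II molecules, stood at 9578 against 4126 CPM and at 11663 against 3158 CPM in the same order. The peptide-loading gene H2-DMb1 was at 351 against 138 CPM in the chemoresistant and at 370.3 against 82.9 CPM in the primary library. Ciita, the coactivator that switches on class II genes, stood at 125 against 33.8 CPM in the chemoresistant and at 158 against 27.2 CPM in the primary library. Ctss and Ifi30, a protease and a thiol reductase of the same antigen pathway, did not pass the fold. Ctss stood at 2229 against 2049 CPM and 2218 against 2088 CPM, and Ifi30 at 860.4 against 674 CPM and 985 against 745 CPM, in the chemoresistant and the primary library. Among all 6 classes of C1q macrophages, H2-Aa was highest in the members of both libraries, followed by the Retnla/Ear2 macrophages at 3166 CPM in the chemoresistant and 3653 CPM in the primary library. It was lowest in the Il1b/Cxcl2 macrophages of the chemoresistant library (1018 CPM) and in the resident-type macrophages of the primary library (632 CPM).

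The promoters of 3 of these genes are shown because the class II genes differed together. The windows run from 250 bases before to 50 bases after the annotated start, from RefSeq on GRCm38.p6, and capitals mark GATTGG or its reverse complement CCAATC, the core of the Y box that class II promoters share. The Y box core is the CCAAT box read in reverse. It lay 49 bases before the start in H2-Aa, 60 and 35 bases before it in H2-Eb1 and 62 bases before it in H2-DMb1. It lay 91 bases before the start of H2-DMb2, and of 2 windows of H2-DMa 1 held it, 199 bases before the start, and the other did not. The letters occur in 16.1% of the 32851 promoter windows of the table, so that a match alone does not mark a class II gene.
H2-Aa, chr17:34287774-34288073, minus strand: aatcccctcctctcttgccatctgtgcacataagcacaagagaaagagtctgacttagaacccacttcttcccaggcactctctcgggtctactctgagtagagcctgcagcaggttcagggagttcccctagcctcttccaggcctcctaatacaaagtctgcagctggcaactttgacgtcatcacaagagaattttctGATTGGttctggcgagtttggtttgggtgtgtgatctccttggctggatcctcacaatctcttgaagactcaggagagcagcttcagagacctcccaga
H2-Eb1, chr17:34305617-34305916, plus strand: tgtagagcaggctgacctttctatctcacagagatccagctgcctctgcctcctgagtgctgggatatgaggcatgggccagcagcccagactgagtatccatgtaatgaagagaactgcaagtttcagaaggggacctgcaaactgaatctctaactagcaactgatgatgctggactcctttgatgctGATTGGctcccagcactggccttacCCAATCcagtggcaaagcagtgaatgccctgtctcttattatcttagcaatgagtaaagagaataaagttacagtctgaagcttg
H2-DMb1, chr17:34152941-34153240, plus strand: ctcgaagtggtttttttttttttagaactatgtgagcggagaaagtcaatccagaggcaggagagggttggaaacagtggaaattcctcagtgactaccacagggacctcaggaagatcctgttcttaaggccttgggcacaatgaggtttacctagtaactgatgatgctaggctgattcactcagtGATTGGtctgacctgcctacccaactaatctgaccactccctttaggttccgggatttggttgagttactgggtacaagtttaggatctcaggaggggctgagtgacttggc

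Other genes higher in members included some of monocytes and of myeloid cells that present antigen. Mgl2, the lectin CD301b, stood at 94.3 CPM in members against 19.8 CPM in Arg1 macrophages of the chemoresistant library and at 158 against 29.9 CPM in the primary library, where 52.6% of its members' UMIs were in 10 cells. Clec4b1, a C-type lectin of dendritic cells and monocytes, stood at 101 against 13.2 CPM and at 63.1 against 11.3 CPM. Plbd1, a lysosomal phospholipase B-like protein, was at 264 against 106 CPM in the chemoresistant and 320.1 against 106 CPM in the primary library. Spon1, the secreted matrix protein spondin 1, was at 271 against 70.9 CPM and at 227 against 92.4 CPM. It was detected in 59.6% of chemoresistant and 55.7% of primary members, against 1.51% and 1.69% of B cells. Olfm1, Gpr141 and Sirpb1c completed the 8 genes with the largest ratios, with log2 ratios of 1.08 to 1.21 in both libraries. Sirpb1c belongs to a family of near-identical genes between which counting can split reads, so its value is uncertain. Of 9 genes tested from a list of monocyte-derived dendritic cell genes, 4 were higher in members (Mgl2, Batf3, Dpp4 and Itgax) and none was lower. The transcription factor Batf3 stood at 88.9 against 29.7 CPM in the chemoresistant and 77.8 against 38.0 CPM in the primary library.

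The list of classical monocyte genes was split. Of 21 tested, 5 were higher in members (Ly6c2, Plac8, Ms4a4c, S100a4 and S100a6) and 3 were lower (F13a1, Thbs1 and Mgst1). Ms4a4c stood at 276 CPM in members against 81.0 CPM in Arg1 macrophages of the chemoresistant library, and at 179 against 60.2 CPM in the primary library. S100a4, a calcium-binding protein of motile cells, stood at 860.1 against 340.1 CPM and at 703 against 322 CPM.

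Genes of settled tissue macrophages, of lipid and iron handling and of lysosomes were lower in members. Of 19 tissue macrophage genes tested, 13 were lower and none was higher, with median log2 ratios of -1.25 in the chemoresistant and -1.40 in the primary library. Fcna, the complement lectin ficolin A of macrophages, stood at 87.4 CPM in members against 977 CPM in Arg1 macrophages of the chemoresistant library and at 75.4 against 687 CPM in the primary library. Cd5l, a secreted inhibitor of macrophage apoptosis, stood at 14.97 against 218 CPM and at 13.1 against 165 CPM. The scavenger receptor Marco was at 8.38 against 116 CPM and at 2.63 against 143 CPM. Of 12 iron and haem genes tested, 6 were lower, among them the iron exporter Slc40a1, the haem-degrading enzyme Hmox1 and both ferritin genes Fth1 and Ftl1. Hmox1 stood at 1124 against 3754 CPM in the chemoresistant and at 995 against 3738 CPM in the primary library. Of 24 lipid handling genes tested, 8 were lower and none was higher. The fatty acid carrier Fabp5 stood at 162 against 757 CPM and at 203 against 1038 CPM, and the glycoprotein Gpnmb of lipid-laden macrophages at 8.68 against 161 CPM and 25.9 against 268 CPM. Of 19 lysosomal genes tested, 5 were lower, led by the protease Ctsd at 1348 against 4124 CPM and 1210 against 4541 CPM. The chemokine Ccl24, which attracts eosinophils, stood at 19.8 against 296 CPM and at 24.5 against 231 CPM. The arginine deiminase Padi4 completed the 8 genes with the largest ratios.

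**Figure D2:**
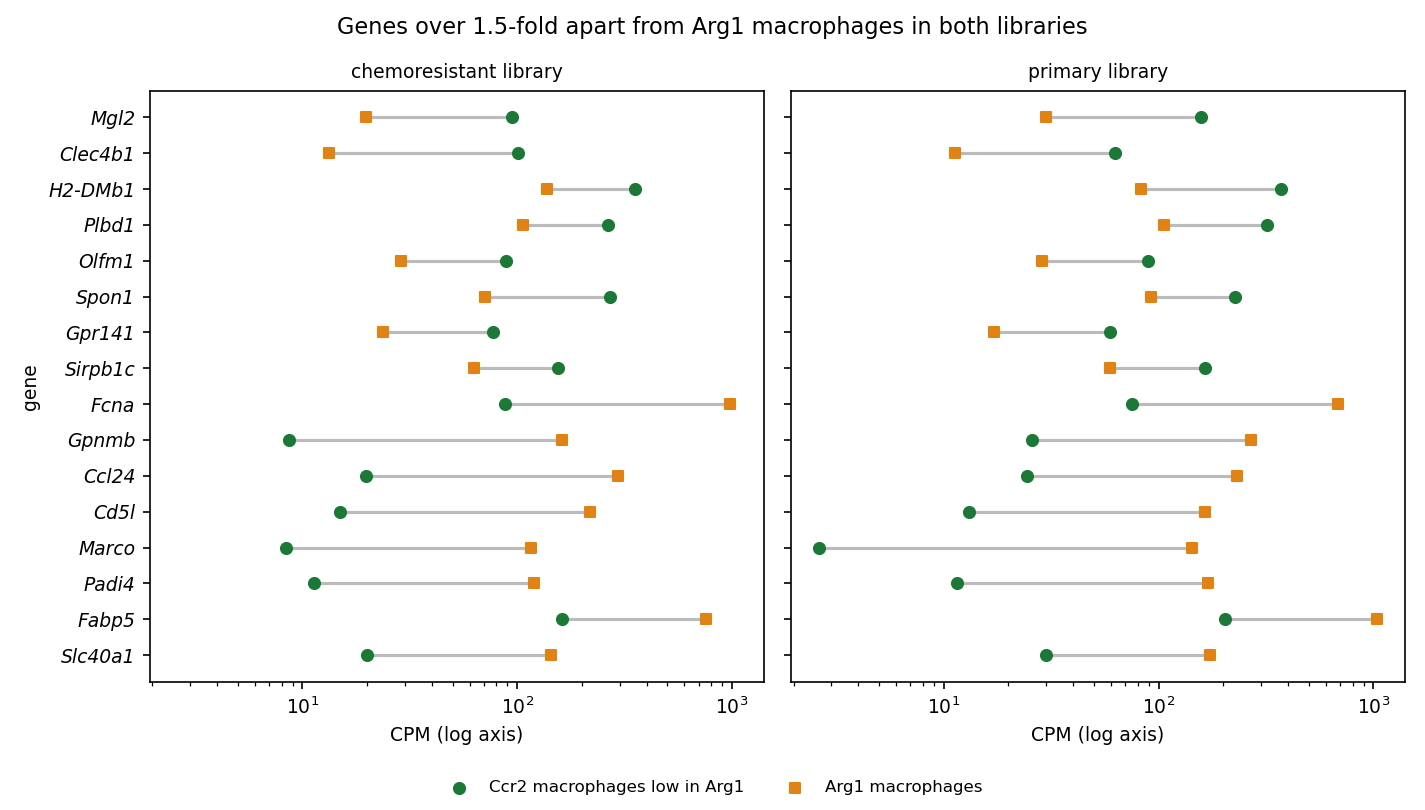
Levels in CPM (log axis) of the 16 genes outside the selection rule with the largest ratios between members (circles) and Arg1 macrophages (squares), in the chemoresistant library on the left and the primary library on the right. In both libraries the first 8 genes are higher and the last 8 lower in the members, and Fcna is at 87.4 and 75.4 CPM in members against 977 and 687 CPM in Arg1 macrophages.

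Markers of other cell types were looked up in the same sums. The 10 conventional dendritic cell markers summed to 201 CPM in chemoresistant and 146 CPM in primary members, against 75.4 and 33.0 CPM in Arg1 macrophages and 390 and 494 CPM in the B cells of the same libraries. How much of the B cell sums was free RNA, rather than transcripts of the B cells themselves, was not tested. Of these markers, detection per cell was read for Flt3 and Fscn1. Flt3 was detected in 6.10% of chemoresistant and 5.57% of primary members, against 2.52% and 9.20% of B cells. Fscn1 was detected in 4.78% and 2.23% of members, against 2.01% and 1.77% of B cells. In Arg1 macrophages, which were deeper than the members, Flt3 was detected in 2.88% and 1.67% and Fscn1 in 2.25% and 1.67%. Fibroblast markers summed to 209 CPM in chemoresistant and 283 CPM in primary members, against 67.4 and 66.8 CPM in Arg1 macrophages, and 3 of the 4 tested were higher in members. Neutrophil markers summed to 332 and 1446 CPM in members, against 279 and 433 CPM in Arg1 macrophages. The part of these cell types in the differences was not tested. Without the 28 chemoresistant and 14 primary members that had 3 or more UMIs of Fscn1, Ccr7, Flt3, Xcr1 and Clec9a, an exclusion chosen after seeing the data, members remained 3.88% and 3.39% of the kept barcodes.

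The second comparison took the Ccr2-negative rest, which met every other limit of the members. Of 8600 genes tested, 105 (1.22%) were higher and 192 (2.23%) were lower in members in both libraries. MHC class II again stood out, with 7 of 12 genes higher and none lower. H2-Aa stood at 4548 CPM in members against 1898 CPM in the Ccr2-negative rest of the chemoresistant library and at 4730 against 1652 CPM in the primary library. In this comparison 10 of 21 classical monocyte genes were higher and 1 (Mgst1) was lower, with median log2 ratios of 0.72 and 0.81 in the chemoresistant and primary libraries. Plac8, a small cysteine-rich protein of myeloid cells, stood at 716 CPM in members against 75.9 CPM in the Ccr2-negative rest of the chemoresistant library, and at 385 against 148 CPM in the primary library. Ly6c2 stood at 77.2 against 6.96 CPM and at 45.5 against 19.2 CPM. Emb, the adhesion protein embigin, stood at 247 against 85.4 CPM and at 288 against 89.0 CPM. Spon1 led the ranked genes, at 271 against 53.8 CPM and 227 against 46.8 CPM. Naaa, a lysosomal amidase, stood at 249 against 69.0 CPM and at 171 against 49.95 CPM.

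Chemokines were the other side of this comparison, with 7 of 15 lower and none higher in members. Ccl8, which binds Ccr2 and other receptors, stood at 126 CPM in members against 516 CPM in the Ccr2-negative rest of the chemoresistant library and at 116 against 1079 CPM in the primary library. Ccl4, which attracts T cells and monocytes, stood at 148 against 535 CPM and at 129 against 570.0 CPM. Against Arg1 macrophages the same gene was higher in members, at 148 against 74.8 CPM and 129 against 53.2 CPM, so the members lay between those classes. The 10 members with most UMIs held 68.8% of the chemoresistant and 77.3% of the primary UMIs of Ccl8, and 64.1% and 57.0% of those of Ccl4. Of 24 immediate early and heat shock genes, 6 were lower, among them Fos, Fosb, Egr1 and Atf3. Of 19 tissue macrophage genes tested, 8 were lower and none was higher. The growth factor Igf1 stood at 57.2 against 232 CPM and at 77.8 against 341 CPM, and the adhesion molecule Vcam1 at 11.98 against 67.7 CPM and 27.3 against 120 CPM. Fibroblast markers summed to 425 and 534 CPM in the chemoresistant and primary Ccr2-negative rest, above the members, and their part in these differences was not tested.

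The third comparison set the members against monocytes without C1q, which had Csf1r, Ccr2 and Ly6c2 but no C1q UMI. Only 14 such cells were found in each library, with 64707 UMIs in all in the chemoresistant and 116187 UMIs in the primary library, so that most of their genes rest on a few counts. Of 8091 genes tested, 396 (4.89%) were higher and 220 (2.72%) were lower in members. Of 23 classical monocyte genes tested, 17 were lower and none was higher, although Ly6c2 among them chose the monocytes. Chil3, a chitinase-like protein of monocytes, stood at 96.1 CPM in members against 1916 CPM in monocytes of the chemoresistant library, and at 145 against 938 CPM in the primary library. The matrix proteoglycan Vcan stood at 17.1 against 216 CPM and at 48.1 against 637 CPM, and the matrix protein Thbs1 at 34.7 against 278 CPM and 76.0 against 534 CPM. Of 17 tissue macrophage genes tested, 8 were higher in members and none was lower. The mannose receptor Mrc1 stood at 547 against 232 CPM and at 690.2 against 181 CPM, and the phospholipid transfer protein Pltp at 276 against 30.9 CPM and at 325 against 34.4 CPM. H2-Aa, H2-Ab1, H2-Eb1 and Cd74 were higher in members as well. H2-Aa stood at 4548 against 1684 CPM in the chemoresistant and at 4730 against 2341 CPM in the primary library. For the classical monocyte genes Plac8, S100a4, Emb and Ifitm6 the members lay between the monocytes and the Ccr2-negative rest in both libraries. S100a4, for example, stood at 860.1, 1870 and 224 CPM in members, monocytes and the Ccr2-negative rest of the chemoresistant library and at 703, 1480 and 325 CPM in those of the primary library. These genes were picked from the list, and the order of its other genes is not given. Mgst1 was lower in members than in the Ccr2-negative rest. Limits on Ccr2, C1q and Ly6c2 formed the classes, so the order is a description.

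The members varied widely among themselves. After each cell was thinned at random to 2000 UMIs, which 559 chemoresistant and 443 primary members reached, H2-Aa, H2-Ab1, H2-Eb1 and Cd74 together had a median of 44 UMIs per chemoresistant member and 45 UMIs per primary member. The range between the 5th and the 95th percentile ran over 5 to 95 UMIs in chemoresistant members and 1 to 113 UMIs in primary members. Cells with fewer than 5 class II UMIs were 4.47% of the chemoresistant and 12.6% of the primary members. Such cells were 14.5% and 48.5% of Arg1 macrophages and 30.8% and 47.1% of the Ccr2-negative rest, so low class II was less common among members in both libraries. At this equal depth Ccr2 was detected in 82.8% of chemoresistant and 78.6% of primary members, Mrc1 in 61.2% and 58.0%, F13a1 in 63.9% and 55.5%, and Ly6c2 in 8.05% and 5.64%. Apoe, the lipid carrier apolipoprotein E, had a median of 26 UMIs in chemoresistant and 34 UMIs in primary members, and 0 in at least 5% of the cells of each library. Transcripts of Mki67 or Top2a, which cycling cells express, were found in 6.26% and 7.22% of the thinned members.

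**Figure D3:**
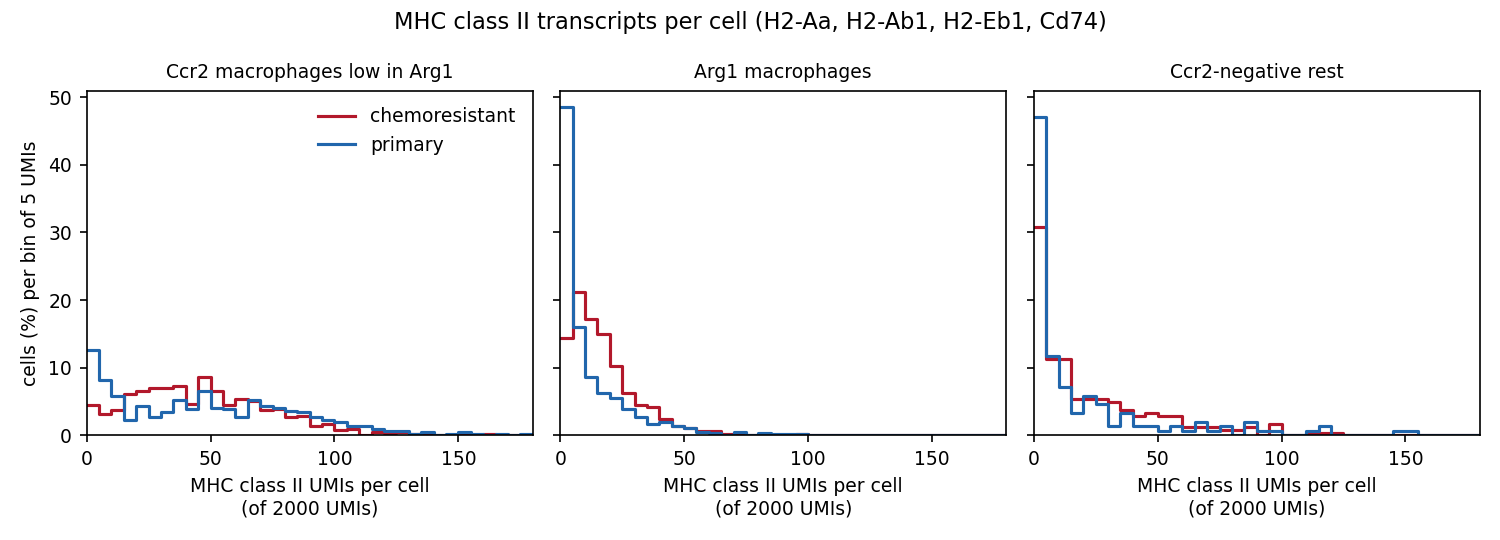
Distribution over cells of the UMIs of H2-Aa, H2-Ab1, H2-Eb1 and Cd74 among 2000 UMIs (x axis, bins of 5 UMIs) as a percentage of the cells of each library (y axis), in members, Arg1 macrophages and the Ccr2-negative rest. The members spread to over 100 UMIs, while 48.5% of primary Arg1 macrophages and 47.1% of the primary Ccr2-negative rest lie under 5 UMIs.

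Genes that went with MHC class II within the members were read off by ranking the thinned cells on those 4 transcripts, which is a description of a range and not of cell types. The 186 chemoresistant and 147 primary members with most class II UMIs (56 to 161 and 66 to 175) were set against the 187 and 148 with fewest (0 to 31 and 0 to 25). The genes compared had a mean of at least 50 CPM. Besides the ranking genes, 1.5-fold differences the same way in both libraries put the loading genes H2-DMa and H2-DMb1, Ciita, the B cell coreceptor Cd72, the protease Napsa, Plbd1, Clec4b1, Ifitm1 and Spon1 higher in the cells rich in class II. Spon1 stood at 366 CPM in the rich and 158 CPM in the poor cells of the chemoresistant library and at 337 and 152 CPM in those of the primary library. Cd72 stood at 96.8 and 26.7 CPM and at 81.6 and 20.3 CPM. Of 3194 genes compared besides the 4 ranking genes, 25 (0.783%) were higher and 97 (3.04%) lower in the rich cells. The platelet factor chemokine Pf4 stood at 258 CPM in the rich and 1353 CPM in the poor cells of the chemoresistant library and at 313 and 1622 CPM in those of the primary library. Hmox1 stood at 624 and 1425 CPM and at 435 and 1490 CPM, and Ctsd at 836 and 1765 CPM and at 697 and 1905 CPM. The acute-phase gene Saa3, the folate receptor Folr2, Fcna, Igf1 and Cd36 were lower in the rich cells too, while C1qa differed little, at 3519 and 3168 CPM in the chemoresistant and 3007 and 2530 CPM in the primary library. The neutrophil gene S100a8 stood at 45.7 and 134 CPM and at 40.8 and 1189 CPM. Of the 101 genes compared here that were lower in members than in Arg1 macrophages, 40 were also lower in the rich cells and none was higher, and both readings use the same members.

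The fourth comparison asked what differed between the members of chemoresistant and of primary tumours. Of 8379 genes tested, 99 (1.18%) were more than 1.5-fold higher and 213 (2.54%) were more than 1.5-fold lower in chemoresistant members. The median log2 ratio of all genes was -0.11, so the split depends on the scaling. With that median set to 0, which shifts every gene by 0.11, the counts were 197 higher and 111 lower. The counting intervals of both libraries lay apart for each of the 99 and 213 genes. At the depth of these sums the fold limit already sets that outcome, so it lends the calls no support. Of the called genes, 22 of the 99 and 52 of the 213 had 50% or more of their UMIs in 10 cells of the library in which they were higher. At equal depth of 2000 UMIs per cell, 63 of the 99 and 148 of the 213 still passed the fold.

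**Figure D4:**
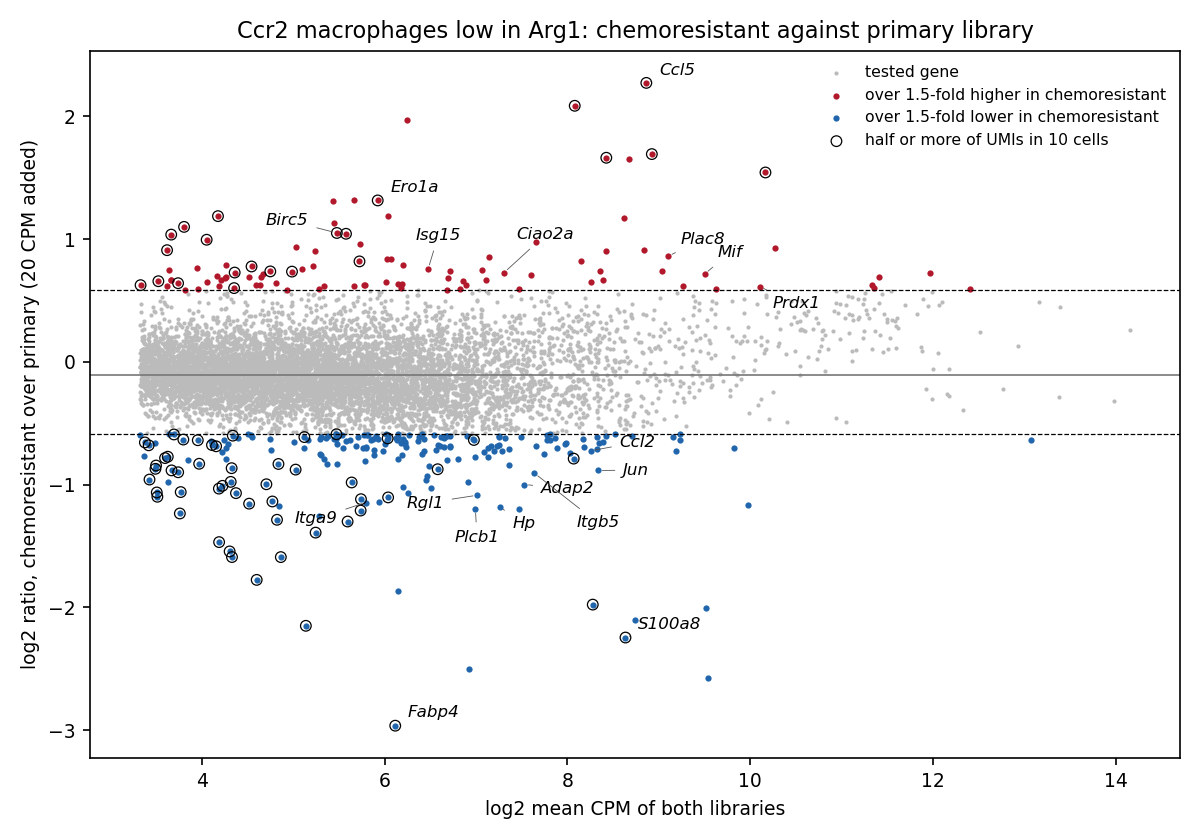
Log2 ratio of chemoresistant over primary members (y axis, 20 CPM added) against log2 mean CPM (x axis) for 8379 genes, with 99 genes past 1.5-fold higher in red and 213 lower in blue. Open rings mark genes with 50% or more of their UMIs in 10 cells of the library in which they were higher, among them Ccl5, Fabp4 and S100a8, and the grey line is the median of -0.11.

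None of 12 MHC class II genes tested passed the fold, with a median log2 ratio of -0.06 (0.04 with the median of all genes set to 0), and none of 12 MHC class I genes did, with a median of 0.26. H2-Aa differed by a log2 ratio of -0.06 and Cd74 by -0.28. The spread over cells differed, with a 25th percentile of 25 class II UMIs of 2000 in chemoresistant and 14 in primary members. None of the tissue macrophage genes (18 tested, median -0.28), the lysosomal genes (19, median -0.10, or 0.01 with the median of all genes set to 0) or the chemokine and migration receptors (16, median -0.23) passed the fold either. Ccr2, which selected the cells, stood at 945 CPM in chemoresistant and 994 CPM in primary members.

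Hypoxia and glycolysis genes were the list with the most genes higher in chemoresistant members, with 5 of 25 tested higher, none lower and a median log2 ratio of 0.31. Mif, a cytokine and hypoxia target, stood at 907 CPM (875 to 940) in chemoresistant and 544 CPM (524 to 565) in primary members. Pgk1, the glycolytic enzyme phosphoglycerate kinase 1, stood at 416 CPM (394 to 438) and 240 CPM (226 to 254). At equal depth Pgk1 was detected in 52.6% of chemoresistant and 32.3% of primary members, so the difference was spread over many cells. Ero1a, an oxidase of the endoplasmic reticulum induced in hypoxia, stood at 95.2 and 26.3 CPM, Ndrg1 at 71.3 and 24.3 CPM and the vessel growth factor Vegfa at 30.5 and 10.5 CPM. For these 3 genes the 10 cells with most UMIs held 61.6%, 57.1% and 72.5% of the chemoresistant UMIs. All 5 transcripts were also higher in the chemoresistant than in the primary B cells. There Mif stood at 468 against 225 CPM and Pgk1 at 249 against 83.9 CPM. Ero1a stood at 77.7 against 23.7 CPM, Ndrg1 at 81.8 against 7.05 CPM and Vegfa at 45.0 against 7.85 CPM in these B cells. The chemoresistant members thus lay below the B cells of their library for Ndrg1 and Vegfa. In Arg1 macrophages Pgk1 stood at 458 and 281 CPM and Mif at 909 and 628 CPM. The part of free RNA and of a shift common to all cells of a library was not tested.

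Promoters of 2 of these genes are given with the core ACGTG or its reverse complement CACGT in capitals, the letters to which hypoxia-inducible factors bind and which the E box CACGTG contains. The core lay 63 bases before the start of Ero1a and 150 and 131 bases before that of Pgk1. It lay 211 bases before the start in 1 of 2 windows of Vegfa, was not in the other, and lay 29 bases after the start of Mif. In all, 19.6% of all promoter windows hold it.
Ero1a, chr14:45318523-45318822, minus strand: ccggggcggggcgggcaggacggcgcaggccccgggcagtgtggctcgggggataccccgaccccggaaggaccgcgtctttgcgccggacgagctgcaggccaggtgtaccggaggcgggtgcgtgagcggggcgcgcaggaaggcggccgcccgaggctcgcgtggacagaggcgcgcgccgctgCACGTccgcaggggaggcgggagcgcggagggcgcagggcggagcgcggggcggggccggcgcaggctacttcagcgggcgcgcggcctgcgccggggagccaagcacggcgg
Pgk1, chrX:106186850-106187149, plus strand: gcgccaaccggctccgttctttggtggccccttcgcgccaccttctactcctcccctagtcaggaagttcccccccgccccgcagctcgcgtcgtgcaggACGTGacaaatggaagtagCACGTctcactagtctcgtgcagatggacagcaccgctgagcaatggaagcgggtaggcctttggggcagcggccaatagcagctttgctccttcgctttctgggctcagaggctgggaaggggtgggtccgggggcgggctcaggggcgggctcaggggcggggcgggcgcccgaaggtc

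Only 9 of the higher genes had at least 50 CPM and less than 50% of that level in the B and T cells of the library. Prdx1, a peroxide-reducing enzyme, stood at 1337 CPM (1298 to 1376) in chemoresistant and 868 CPM (842 to 894) in primary members. Thioredoxin, Txn1, stood at 752 and 483 CPM. In Arg1 macrophages Txn1 stood at 1367 and 1038 CPM and Prdx1 at 2232 and 1946 CPM, in the same direction. B cells differed in that direction too, with Txn1 at 323 and 214 CPM and Prdx1 at 501 and 235 CPM. Zbp1, an interferon-induced sensor of nucleic acid, stood at 147 CPM (134 to 160) and 85.5 CPM (77.5 to 94.0), and was detected in 28.8% of chemoresistant and 16.9% of primary members at equal depth. Isg15, a ubiquitin-like protein induced by type I interferon, stood at 117 and 61.0 CPM and the interferon-induced GTPase Gbp2 at 52.1 and 22.03 CPM. Of 26 type I interferon-stimulated genes tested, however, only Zbp1 and Isg15 passed the fold, and the median log2 ratio was 0.20. Of 21 classical monocyte genes, 3 were higher (Plac8, Mgst1 and Ifitm6) and 4 lower (Hp, Vcan, Thbs1 and Gsr), with a median of 0.16. Plac8 stood at 716 CPM in chemoresistant and 385 CPM in primary members, and also at 617 and 439 CPM in B cells, which express it. Ifitm6, an interferon-induced membrane protein of monocytes, stood at 148 and 88.7 CPM. Of 16 NRF2 and glutathione genes tested, 2 were higher (Prdx1 and Mgst1) and 2 were lower (Gsr and Slc7a11), with a median of -0.04. Mgst1 stood at 137 CPM in chemoresistant and 73.8 CPM in primary members, and at 146 and 34.9 CPM in B cells. The iron-sulphur assembly gene Ciao2a stood at 203 and 114 CPM and the ferritin pseudogene Ftl1-ps1, whose reads cannot be told from those of Ftl1 with certainty, at 140.4 and 86.5 CPM. Of 23 cell cycle genes tested, 2 were higher (Birc5 and Cks1b) and 1 was lower (Mki67), with a median of 0.28. Birc5 stood at 67.1 and 22.03 CPM, but 58.5% of its chemoresistant UMIs were in 10 cells. Cks1b stood at 50.9 and 27.1 CPM, and Mki67 went the other way at 31.4 and 57.4 CPM.

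Of the genes lower in chemoresistant members, some were spread over many cells and some were carried by a few. Adap2, a GTPase-activating protein for Arf6, stood at 116 CPM (105 to 129) in chemoresistant and 253 CPM (239 to 267) in primary members, and was detected at equal depth in 22.5% (19.1 to 26.2%) of chemoresistant and 37.2% (32.7 to 41.9%) of primary members. The integrin subunits Itgb5 and Itga9 stood at 133 and 26.9 CPM in chemoresistant members, against 266 and 83.9 CPM in primary members. Rgl1, an exchange factor of the Ral GTPases, stood at 75.4 and 183 CPM, the phospholipase Plcb1 at 69.5 and 185 CPM and haptoglobin, Hp, at 85.9 and 220.3 CPM. In Arg1 macrophages Adap2, Rgl1, Plcb1 and Itgb5 were lower in the chemoresistant library as well, with Rgl1 at 111 against 252 CPM, while Itga9 stood at 56.5 against 55.0 CPM. In B cells of the chemoresistant and primary libraries Adap2 stood at 4.998 and 5.765 CPM and Itga9 at 3.18 and 3.84 CPM. Igfbp4, which binds insulin-like growth factors, stood at 26.9 and 72.8 CPM with 61.9% of its primary UMIs in 10 cells.

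Several inflammatory and early response genes were lower as well. Of 24 immediate early and heat shock genes tested, 4 were lower (Hspa1a, Hspa1b, Jun and Atf3) and none was higher, with a median log2 ratio of -0.23. In primary members 10 cells held 62.5% of the UMIs of Hspa1a and 61.8% of those of Hspa1b. Jun stood at 221 CPM (206 to 238) in chemoresistant and 425 CPM (407 to 444) in primary members and was also lower in chemoresistant B cells, at 95.9 against 344 CPM. Of 16 inflammatory cytokine and NF-kB genes, 2 were lower (Saa3 and Lcn2) and the median was -0.37. In primary members 10 cells held 87.5% of the UMIs of Saa3 and 94.3% of those of Lcn2. At equal depth Saa3 was detected in 16.8% of chemoresistant and 9.93% of primary members, the other way from its summed level. Among 15 chemokines, Ccl2, Ccl12 and Cxcl1 were lower and Ccl5 was higher. Ccl2, the ligand of Ccr2, stood at 225 CPM (209 to 242) in chemoresistant and 385 CPM (368 to 403) in primary members. The costimulatory ligand Cd86 stood at 111 and 190.2 CPM, and Cd83, which stabilises class II on the surface, at 41.6 and 105 CPM. Cxcl1 stood at 9.88 and 28.7 CPM in members. B cells of the chemoresistant and primary libraries had more of all 3, with Cd86 at 187 and 300.3 CPM, Cd83 at 144 and 953 CPM and Cxcl1 at 18.6 and 47.9 CPM.

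**Figure D5:**
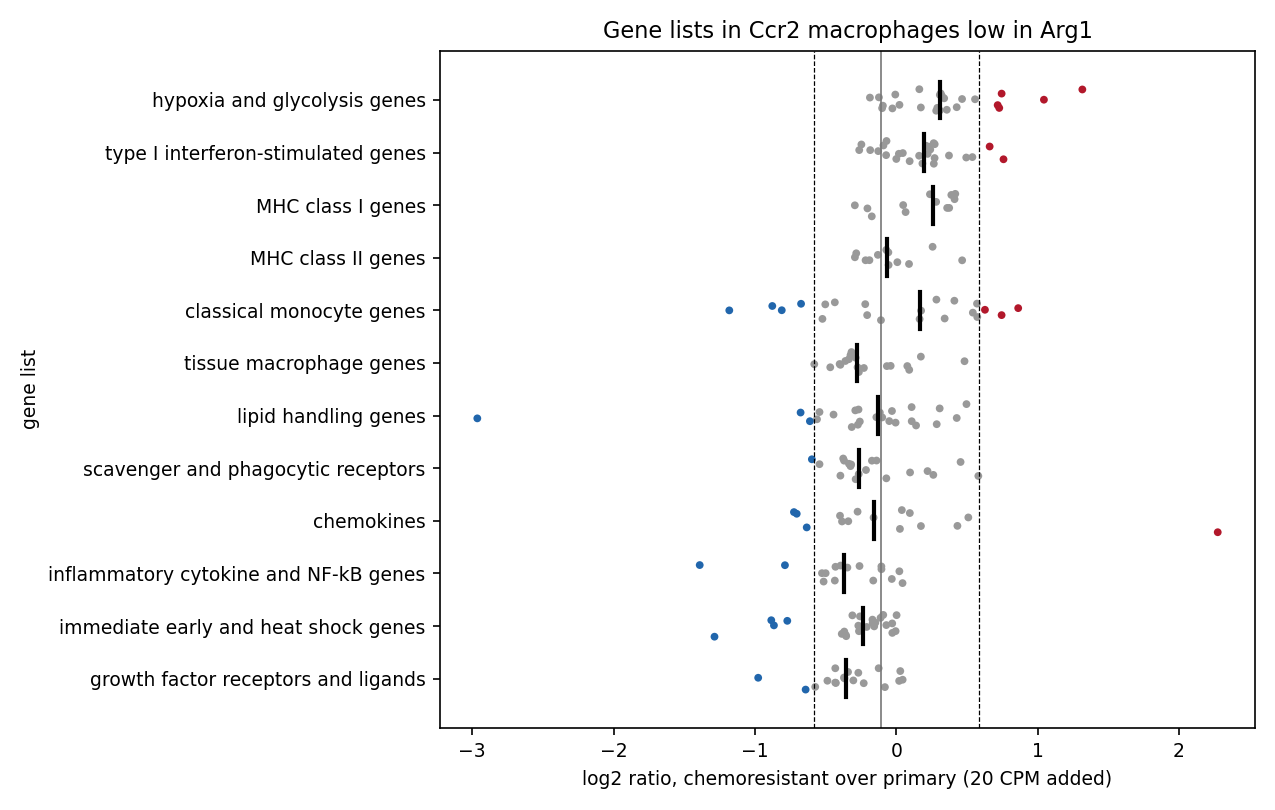
Log2 ratio of chemoresistant over primary members for the tested genes of 12 lists (points, red and blue past 1.5-fold), with the median of each list (black bar), the median of all genes (grey line) and the 1.5-fold limits (dashed). Hypoxia and glycolysis genes have the median farthest right, at 0.31, and inflammatory cytokine and NF-kB genes the median farthest left, at -0.37.

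Several of the largest differences sat in a handful of cells. Whether those cells carried transcripts of another cell type was counted for Ccl5 only. Ccl5, a chemokine of T cells and activated dendritic cells, stood at 785 CPM in chemoresistant and 147 CPM in primary members, but 10 cells held 73.8% and 84.8% of its UMIs. All 10 of those chemoresistant cells had 3 or more UMIs of dendritic cell genes, and without all members of that kind Ccl5 stood at 173 and 141 CPM. Of the 10 primary cells, 3 were of that kind, and without the 10 cells of each library with most Ccl5 it stood at 214 CPM in chemoresistant and 22.8 CPM in primary members. Of the 99 higher and 213 lower genes, 75 and 176 still passed the fold without those members, and 92 and 201 did so without the 13 chemoresistant and 10 primary members that had 5 or more UMIs of S100a8 and S100a9. Both exclusions were chosen after seeing the data. The neutrophil genes S100a8 and Ngp stood at 125 and 0.299 CPM in chemoresistant members, against 670.0 and 70.1 CPM in primary members. The 10 cells with most UMIs held 94.2% and 99.7% of the primary UMIs of S100a8 and Ngp. The 8 neutrophil markers summed to 332 CPM in chemoresistant and 1446 CPM in primary members, against 229 and 640 CPM in B cells. The fatty acid carrier Fabp4, with 1 UMI in chemoresistant and 685 UMIs in primary members, had 92.6% of the primary UMIs in 10 cells, and the collagen gene Col1a1 had 96.3% and 93.2% of its UMIs in 10 cells of each library. Tnfaip6, Lcn2 and Lyz1 were concentrated too, with 94.3% or more of their primary UMIs in 10 cells. Haemoglobin genes and the tumour keratins Krt8 and Krt19 were higher in chemoresistant members, at 67.4 against 19.8 CPM for Krt19, and were higher in chemoresistant B cells as well, at 164 against 31.2 CPM.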

How the data were processed

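The authors deposited raw UMI counts per gene and barcode, made with Cell Ranger 8.0.1 on mm10, per the submitters' processing notes, and all values used here come from these counts. The libraries held 16390 chemoresistant barcodes with 158118781 UMIs and 14390 primary barcodes with 141334623 UMIs. Barcodes with at least 250 genes and at most 20% mitochondrial UMIs were kept (14908 and 12824). The limit on Retnla and Ear2 was read as a UMI sum. Doublets were not removed beyond the limits on Cd3e, Cd79a and Krt18, and a Scrublet score in scanpy 1.11.5, with the same rule for the expected share in both libraries, marked 9.72% of chemoresistant and 7.13% of primary members. UMIs were summed per class and library and scaled to CPM. Intervals are exact, Poisson for CPM and Clopper-Pearson for shares, at 95%. UMIs count molecules, but cells of 1 library are not replicates, so these cover counting error only. Ratios are on the log2(CPM + 20) scale, which understates differences of low genes, for genes with a mean of at least 10 CPM. The procedure was tested on simulated data.

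Genes were named by a rule. Between libraries these were genes past 1.5-fold with at least 50 CPM in the higher library and less than 50% of it in B and T cells of that library, without mitochondrial, ribosomal, immunoglobulin, unnamed and selecting genes, up to 14 each way. Only 9 higher genes met it. Of the lower genes, 1 is not reported here. Against each class they were the 8 largest each way by the smaller of the 2 libraries' ratios. Other genes belong to lists and are named with them. The members, lists and rules were chosen with earlier results of these data known. Python 3.11.15, numpy 2.4.6, scipy 1.17.1, pandas 2.3.3 and matplotlib 3.10.9 were used.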

Additional observations from a re-analysis of the deposited data

Results flagged for a closer look

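Genes that differed between the libraries in opposite directions in members and in Arg1 macrophages were picked out, and the difference between the classes was not tested. Lyz1, a lysozyme gene, had a log2 ratio of chemoresistant over primary of -1.30 in members (19.5 and 77.2 CPM) and 2.12 in Arg1 macrophages (203 and 31.4 CPM). In members, 95.8% of its primary UMIs were in 10 cells, and at equal depth it was detected in 3.22% of chemoresistant and 1.58% of primary members. Lyz1 is close in sequence to Lyz2, so its counts are uncertain. Saa3 had a log2 ratio of -0.79 in members (192 and 345 CPM) and 1.42 in Arg1 macrophages (3220 and 1191 CPM). In members, 87.5% of its primary UMIs were in 10 cells.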

How the results depend on the processing

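No paired analysis was possible because each group is 1 pooled library. The difference in the share of kept barcodes ranged over 0.218 to 0.787 percentage points under 8 alternatives, and that in the share of C1q macrophages over -2.85 to -1.10 under 6. With 5 CPM added they were 211 higher and 618 lower in chemoresistant members, 302 higher than in Arg1 macrophages, 182 higher and 401 lower than in the Ccr2-negative rest, and 679 higher and 441 lower than in monocytes. With 50 CPM added they were 45 and 73, 72, 57 and 78, and 140 and 99 in the same order. Median-of-ratios scaling gave 197 higher and 111 lower genes in chemoresistant members. Members with 4000 to 12000 UMIs gave 423 lower genes and cells thinned to 2000 UMIs gave 485, and thinning gave 1016 higher and 465 lower genes against monocytes, where no filter on low values gave 600 higher. Col1a1 turned to -0.078 and Lyz1 to 0.36 on the log2 scale among members with 4000 to 12000 UMIs, and Tnfaip6 to 0.043 there and to 0.081 without doublets. The causes were not tested. Of 459 values of list medians under alternatives, 24 in 9 lists changed sign. All but 2 of these were in lists whose median was within 0.12 of 0. Fibroblast markers turned to 0.75 without doublets, and classical monocyte genes to -0.11 with no filter on low values. Depth limits the comparison of libraries, since chemoresistant members had a median of 4576 UMIs and primary members 10489 UMIs, and the 14 monocytes of each library limit that comparison.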
